A study of Homo sapiens with 12 samples.

Results

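H3K27me3, trimethylation of lysine 27 on histone H3, was mapped by ChIP-seq in the human bladder cancer line T24 after DMSO alone, the vehicle of the study. The landscape described here is that of this single vehicle library, taken as all of its broad peaks on chromosomes 1 to 22 and X. There were 211889 such peaks, out of 939236 in the lists of the 4 H3K27me3 libraries of the study. The other 3 ChIP libraries came from cells given the EZH2 inhibitor GSK-126, the retinoid fenretinide or both, and are not compared here. The 4 input and 4 RNA-seq libraries that the labels also list are not analysed here. The labels give no time for DMSO and no replicate of the library, so values below have no replicate check, no test was made, and intervals in brackets cover counting error only.

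H3K27me3 is written by Polycomb repressive complex 2, whose catalytic subunit is EZH2, and is removed by the KDM6 demethylases. The mark lies over genes that a cell keeps silent, above all regulators of other lineages, and Polycomb repressive complex 1 can bind it through CBX proteins. In many cell types it is held over HOX genes and other developmental regulators with CpG-rich promoters, and in differentiated and cancer cells it also spreads as broad blankets over silent chromatin.

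A gene was called marked where the first base of its RefSeq span, read by strand, lay inside a vehicle peak. Of 19821 protein-coding genes, 15813 had a listed start, and 3069 of those (19.4%) were marked. The share of the gene span inside peaks was used for all 19821 genes, since the listed starts leave out 4008 genes. At least 50% of the span was inside peaks for 3729 genes (18.8%), and no base of the span was inside a peak for 11215 genes (56.6%). A gene outside all peaks had no peak called at this depth, which does not show that it lacked the mark.

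The 250 bases before 6 gene starts are shown because they carry the contrasts that run through the results: CpG-rich promoters that were marked (HOXD11, PAX7), CpG-rich promoters that were not (HOXD8, EZH2), and CpG-poor marked promoters (KRT5, LCE3A). They are RefSeq sequences of GRCh38.p14, 5′ to 3′ on the strand of the gene, and capitals mark each CG.
HOXD11: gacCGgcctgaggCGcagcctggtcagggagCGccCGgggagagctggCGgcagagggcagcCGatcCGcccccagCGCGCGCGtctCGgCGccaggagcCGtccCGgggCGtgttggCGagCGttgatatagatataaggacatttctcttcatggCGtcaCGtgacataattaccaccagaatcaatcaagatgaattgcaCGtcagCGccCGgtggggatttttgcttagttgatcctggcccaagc
PAX7: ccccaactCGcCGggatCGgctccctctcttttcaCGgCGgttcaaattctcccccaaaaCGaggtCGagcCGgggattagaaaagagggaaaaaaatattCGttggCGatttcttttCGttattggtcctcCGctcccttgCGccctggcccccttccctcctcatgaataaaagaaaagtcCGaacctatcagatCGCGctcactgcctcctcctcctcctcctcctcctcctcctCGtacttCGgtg
HOXD8: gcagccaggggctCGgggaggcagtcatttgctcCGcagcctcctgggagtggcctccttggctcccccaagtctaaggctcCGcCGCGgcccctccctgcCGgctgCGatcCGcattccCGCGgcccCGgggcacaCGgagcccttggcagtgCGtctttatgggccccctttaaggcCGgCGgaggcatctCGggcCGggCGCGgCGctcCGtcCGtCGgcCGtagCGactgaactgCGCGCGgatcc
EZH2: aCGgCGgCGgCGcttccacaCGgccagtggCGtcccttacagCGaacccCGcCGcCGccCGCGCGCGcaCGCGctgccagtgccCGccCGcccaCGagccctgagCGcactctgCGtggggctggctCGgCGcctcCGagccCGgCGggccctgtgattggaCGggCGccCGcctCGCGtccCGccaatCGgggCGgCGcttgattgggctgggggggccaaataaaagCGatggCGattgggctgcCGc
KRT5: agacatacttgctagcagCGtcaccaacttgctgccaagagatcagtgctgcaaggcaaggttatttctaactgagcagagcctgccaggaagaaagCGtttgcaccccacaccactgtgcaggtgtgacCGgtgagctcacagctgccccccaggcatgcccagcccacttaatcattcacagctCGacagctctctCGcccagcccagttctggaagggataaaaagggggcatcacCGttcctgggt
LCE3A: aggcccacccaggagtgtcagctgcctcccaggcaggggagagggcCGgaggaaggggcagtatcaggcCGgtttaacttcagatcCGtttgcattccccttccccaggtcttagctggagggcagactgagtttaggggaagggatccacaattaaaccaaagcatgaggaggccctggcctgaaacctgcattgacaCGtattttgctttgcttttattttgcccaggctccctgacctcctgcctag

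The HOXD11 promoter (chr2:176107030-176107279, plus strand) holds 23 CG, and the PAX7 promoter (chr1:18630596-18630845, plus strand) holds 18. The HOXD8 promoter (chr2:176129455-176129704, plus strand) holds 28 and that of EZH2 (chr7:148884292-148884541, minus strand) holds 38. By contrast, the promoters of KRT5 (chr12:52520395-52520644, minus strand) and LCE3A (chr1:152623104-152623353, minus strand) hold 6 and 4. The CG dinucleotide reads the same on both strands, and 97.0% of the 13793 promoters with a full sequence held at least 1.

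Developmental regulators, signalling ligands and neuronal genes carried the mark at the start most often among 14 lists of genes. The marked share was 63.8% for neuronal channel and synapse genes (30 of 47), 61.1% for WNT, BMP and growth factor ligands (22 of 36) and 59.3% for developmental transcription factors (51 of 86), beside 19.4% for all coding genes with a listed start. No housekeeping gene (0 of 34) and no gene of DNA repair and replication (0 of 32) was marked. In all, 8 lists lay above the share of all coding genes and 6 below it. The order differed by span. At least 50% of the span was covered for 51.9% of developmental factors, 51.8% of blood genes and 46.7% of basal and squamous markers. The values were 40.85% for neuronal genes and 40.4% for ligands, beside 18.8% of all coding genes. With any peak within 2 kb of the start, blood genes (73.3%) also passed ligands (72.2%), beside 34.5% of all coding genes.

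**Figure D1:**
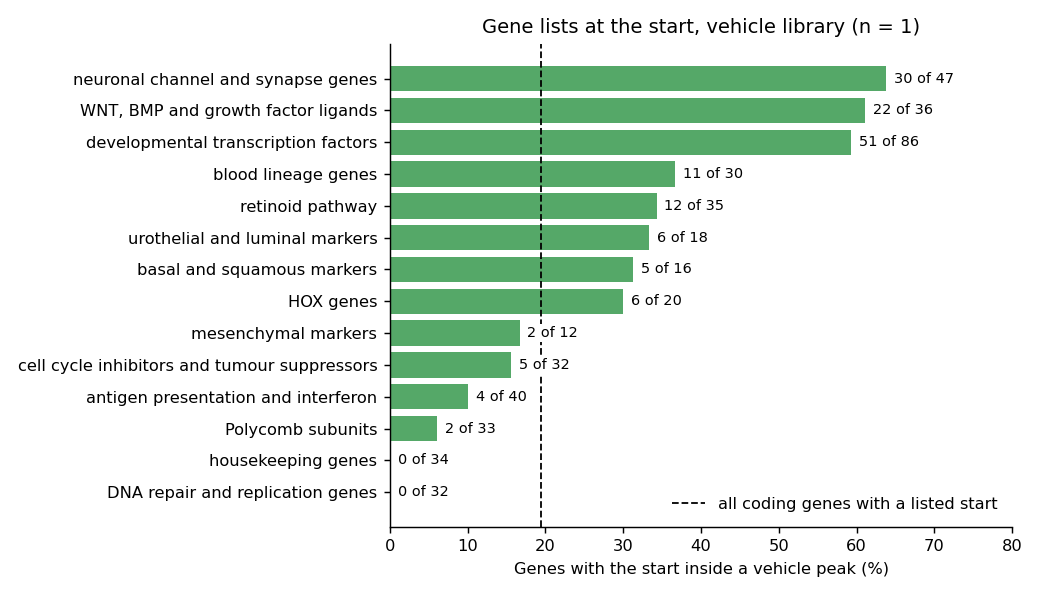
Share of genes whose start lay inside a vehicle peak (x axis, percent) for each of 14 gene lists (y axis), from 1 library. Bars are labelled with marked genes of those with a listed start, and the dashed line is the 19.4% of all coding genes. Bars run from 63.8% for neuronal genes to 0 for housekeeping and DNA repair genes.

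Transcription factors that direct embryonic lineages had more of their spans covered than coding genes at large. Of 129 such genes, 67 had at least 50% of the span inside peaks (51.9%, beside 18.8% of all coding genes). The median was 53.7%, against 0 over all coding genes. PAX7, a factor of muscle precursors, lay in an interval with 2406 fragments, 49.8 per kb, and had 90.5% of its span inside peaks. PAX2, a factor of kidney and eye development, had 98.8% of its span covered and 44.5 fragments per kb. The retinal factor VSX1 had 87.3% and 43.1 fragments per kb. PAX7, PAX2 and VSX1 were the marked members with the most fragments per kb. Over all marked members of the list the median was 17.3 fragments per kb. Intervals that held the start of any marked gene had a like median, 17.9 fragments per kb.

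Among the factors covered over the whole span were the neural factors NEUROD2, NEUROG1, OLIG3, OTX2 and NKX2-2, the heart factor HAND1 and NKX2-1 of lung and thyroid. WT1, a factor of the kidney and gonads, had 97.6% of its span covered and 4425 fragments in its interval. The muscle factor MYOD1 was also covered whole, although no start was listed for it.
A second set of the same kind of factor showed no base inside a peak. These were 32 of the 129, where 56.6% of all coding genes had no base covered. They included GATA3, GATA6 and FOXA1, the mesodermal factor FOXF2, PITX1, MSX1, MSX2, NR2F1, NR2F2, TBX2 and TBX3. Related genes differed: DLX5 and DLX6 were covered over the whole span, while DLX1 and DLX2 had no base covered, and IRX4 had 80.7% of its span inside peaks while IRX3 and IRX5 had 0.

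The 4 HOX clusters, whose genes are numbered along the cluster in the order of their expression along the body axis, were covered unevenly. Of the 12 genes numbered 10 and above, 10 had bases inside peaks and 8 had at least 50% of the span covered, with a median of 69.0%. Of the 27 genes numbered 9 and below, 1 was touched, HOXD1, with 51.6% of its span. The split between 9 and 10 was chosen after the values were seen. Over all 39 HOX genes, 9 had at least 50% of the span covered, or 23.1%, near the 18.8% of all coding genes. Of all coding genes, 43.4% were touched.

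**Figure D2:**
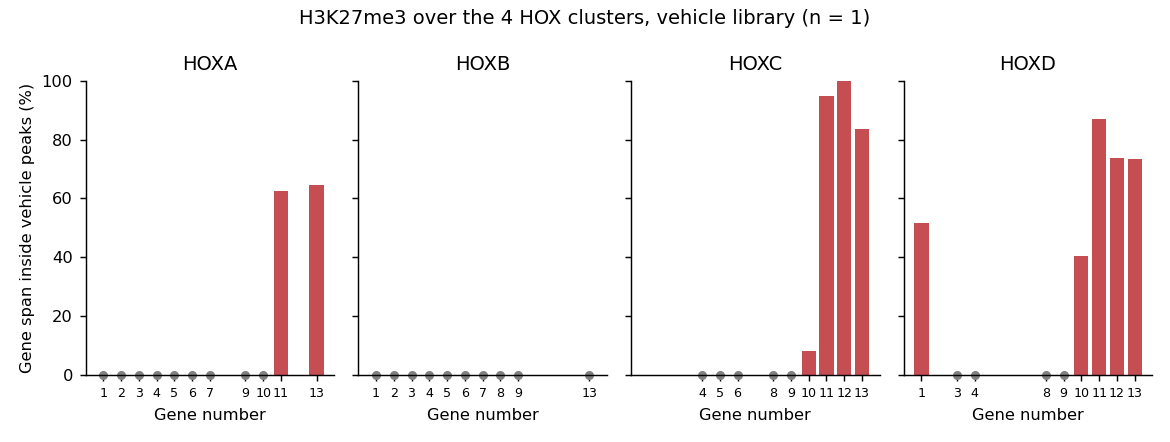
Share of each HOX gene's span inside vehicle peaks (y axis, percent) by gene number within the 4 clusters (x axis), from 1 library. Grey dots mark genes with no base covered, and the bars stand at the high-numbered end of HOXA, HOXC and HOXD, with HOXD1 apart from them.

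In the HOXD cluster, HOXD13 had 73.5% of its span inside peaks, HOXD12 73.8%, HOXD11 87.1% and HOXD10 40.4%. The peak over HOXD13 (chr2:176089087-176095107) had the highest fragment level of the 22 peaks in the clusters, 34.5 per kb, in an interval of its own. HOXC12 was covered over its whole span, HOXC11 over 94.98%, HOXC13 over 83.7% and HOXC10 over 8.04%. HOXA13 had 64.6% and HOXA11 62.6%, whereas their neighbour HOXA10 had 0.
HOXB stood apart from the other 3 clusters. None of its 10 genes had a base inside a peak, HOXB13 included, yet 7 peaks lay between HOXB9 and HOXB13, the widest 17.1 kb long with 19.8 fragments per kb in its interval. Over the whole cluster regions, 30.7% of HOXC, 22.5% of HOXD, 14.7% of HOXB and 14.4% of HOXA lay inside peaks. Only 20 of the 39 HOX genes had a listed start, of which 6 were marked, all numbered 10 or above.

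Secreted ligands of the WNT, BMP, hedgehog and FGF pathways, which pattern embryonic tissues, had a median of 37.3% of the span inside peaks. WNT8B had 1392 fragments in its interval, 52.1 per kb. CHRD, which encodes the BMP antagonist chordin, had 39.2 per kb, and NODAL, a ligand of the TGF-beta family, had 37.0 per kb. WNT1, WNT6, FGF3, SHH and IHH were covered over the whole span. WNT6 and WNT10A were counted in the same interval, so their 31.2 fragments per kb are 1 value. Members with no base covered numbered 11 of 52, where 56.6% of all coding genes had none. They included WNT5B, WNT7B, INHBA, INHBB, FGF5, FGF18 and NOG.

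Ion channels, transmitter receptors and adhesion proteins of neurons were touched almost without exception. Of 71 such genes, only STX1A and SYP, both coding for synaptic vesicle or membrane proteins, had no base inside a peak. Their spans were long, with a median of 260 kb, and longer genes were touched more often throughout: 62.9% of all coding genes of 100 to 500 kb and 94.3% of those of at least 500 kb, beside 43.4% of all coding genes. CACNA1B and CACNA1A, pore subunits of presynaptic calcium channels, had 91.1% and 73.0% of their spans covered, with 32.4 and 31.4 fragments per kb. The kainate receptor gene GRIK3 had 92.2% of its span inside peaks and 10150 fragments. At the other end, GRIA2, a subunit of AMPA receptors, was marked at its start but had 0.173% of its span covered. Over the marked members of the list the median was 13.7 fragments per kb, below the 17.9 of all marked starts. With a deposited score of at least 20, the marked share of the list was 44.7%, beside 15.7% of all coding genes.

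Of 56 genes of blood cells, 29 had at least 50% of the span inside peaks (51.8%, beside 18.8% of all coding genes), and 11 of the 30 with a listed start were marked (36.7%, beside 19.4%). ITGAM, an integrin of myeloid cells, had 98.1% of its span covered and 39.1 fragments per kb. CD22, a B cell receptor, had 27.8 and CD33, a myeloid lectin, had 22.5 fragments per kb. Both alpha-globin genes, HBA1 and HBA2, were covered whole, while the beta-globin locus genes HBB, HBD, HBG1 and HBG2 had no base inside a peak. HBA1 and HBA2 are near-identical copies, so reads may not be assigned to one of them with certainty. PTPRC, which encodes CD45, also had 0, as did CD14, CD27 and CD37.

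The retinoid pathway, which turns vitamin A into ligands of nuclear receptors, had 12 of 35 genes marked, 34.3% beside 19.4% of all coding genes, and a median span share of 26.8%. RDH8 and RDH16, retinol dehydrogenases, had 27.2 and 30.9 fragments per kb. CRABP1, a carrier of retinoic acid, had 94.0% of its span covered. CYP26A1, which breaks down retinoic acid, had 77.8% of its span covered and 96 fragments in its interval, 17.7 per kb (14.3 to 21.6).
RARB, the receptor gene that is a classic retinoic acid target, was marked at its start, with 117 fragments at 17.3 per kb (14.3 to 20.8), and had 30.2% of its 768.6 kb span inside peaks. The other receptors were mostly clear. RARA, RARG and RXRB had no base inside a peak and RXRA had 0.273% of its span covered, whereas RXRG had 73.3% and was marked.

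Markers of bladder epithelium were divided. The luminal regulators GATA3, FOXA1, PPARG, ELF3 and KLF5 had no base inside a peak, nor did ERBB2, CLDN4, KRT7, KRT18, KRT19 and KRT20. The uroplakins, membrane proteins of umbrella cells, differed from one another: UPK3A had 100%, UPK1A 82.2%, UPK2 17.2%, and UPK1B and UPK3B 0. The receptor gene FGFR3 had 67.5% of its span covered, with 15.9 fragments per kb. Marked starts numbered 6 of 18, or 33.3% beside 19.4% of all coding genes, and the median span share was 0.427%. Counting any peak within 2 kb of the start, the list stood at the same 33.3%, beside 34.5% of all coding genes. RNA was not analysed here, so these values cannot say which of the markers the cells expressed.

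Basal and squamous markers followed the keratin clusters. Of 30 such markers, 14 had at least 50% of the span covered (46.7%, beside 18.8% of all coding genes). Of the 16 with a listed start 5 were marked (31.25%, beside 19.4%). KRT5, KRT6A, KRT6B, KRT6C and KRT1 of the type II cluster on chromosome 12, and KRT14, KRT16 and KRT17 of the type I cluster on chromosome 17, were all covered whole. KRT5 lay in a 159.2 kb interval with 3256 fragments, 20.5 per kb (19.8 to 21.2). The calcium-binding genes S100A9 and S100A7, of the epidermal cluster on chromosome 1, were covered whole as well, with 28.8 and 26.1 fragments per kb. The basal regulator TP63, EGFR, CD44, ITGA6 and LAMB3 had no base inside a peak.
The keratin clusters differed as a whole. On chromosome 12, 21 of 27 keratin genes had at least 50% of the span covered and 4 had no base covered. On chromosome 17, 4 of 28 did and 24 had no base covered, and the 4 were the neighbours KRT9, KRT14, KRT16 and KRT17. Over all coding genes 18.8% had at least 50% covered, near the share on chromosome 17, and 56.6% had no base covered. The uncovered genes on chromosome 12 were KRT7, KRT18, KRT80 and KRT81, and KRT8 beside KRT18 had 0.854%. These clustered genes share peaks: the 55 keratins were touched by 26 peaks. Of 34 listed starts 13 were marked (38.2%, beside 19.4% of all coding genes), and these lay in 4 intervals.

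Of the cell cycle inhibitors and tumour suppressors, 5 of 32 were marked, or 15.6%, which is near the 19.4% of all coding genes. No base was covered in 28 of 40, where 56.6% of all coding genes had none. CDKN1A, CDKN1B, CDKN1C, CDKN2A and CDKN2B, the main cyclin-dependent kinase inhibitors of the list, all had 0, as did RB1. The 5 marked genes were DAPK1, a death-associated kinase, and the secreted WNT antagonists SFRP2, SFRP4, SFRP5 and WIF1. SFRP5 had 564 fragments in its interval, 25.3 per kb. SMAD7, an inhibitor of TGF-beta signalling, had 4.39% of its span covered and was not marked. The proto-oncogenes HRAS and MYC had no base inside a peak, while TERT, the telomerase gene, was marked with 257 fragments at 18.4 per kb (16.2 to 20.8). IGF2, a growth factor gene of the imprinted region on chromosome 11 that also holds CDKN1C, had 91.1% of its span covered.

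Of the antigen presentation and interferon genes with a listed start, 4 of 40 were marked, 10.0% beside 19.4% of all coding genes. By span, 10 of 51 had at least 50% covered, or 19.6%, near the 18.8% of all coding genes. HLA-DRA, HLA-DOA and HLA-G were covered whole and HLA-B over 79.1%, while HLA-C, HLA-E, B2M, TAP1 and TAP2 had 0. HLA genes are similar copies and vary between genomes, which makes single values uncertain. CIITA, the activator of class II genes, had 68.7% of its span covered. Of 27 mesenchymal markers, 4 had at least 50% of the span covered (14.8%, beside 18.8% of all coding genes). Of the 12 with a listed start 2 were marked (16.7%, beside 19.4%), so both shares were near those of all coding genes. The marked ones were TWIST2 and ZEB2, with 31.0% and 1.93% of the span covered. COL1A1 had 70.6% and MMP2 67.8%, while VIM, FN1, CDH2 and ZEB1 had no base inside a peak.

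Of the genes for the Polycomb machinery, 30 of 38 had no base inside a peak, beside 56.6% of all coding genes, and EZH2, SUZ12, EED, RBBP4, JARID2, RING1 and RNF2 were among them. L3MBTL1 and AEBP2 were the marked ones of 33, or 6.06% beside 19.4%, with 31.9% and 14.8% of the span covered. All 39 housekeeping genes found in RefSeq had no base covered. Among the genes of DNA repair and replication, POLA1 had 10.2% of its span inside peaks and ATM 0.199%.

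Families of genes, grouped by the letters of the symbol before the number, ranged from wholly covered to almost free of peaks. The marked share to set beside them is the 19.4% of all coding genes with a listed start. Of 112 families with at least 15 listed starts, the late cornified envelope genes (LCE) had the highest marked share, 83.3%, followed by serotonin receptors (HTR) with 73.3%, beta-defensins (DEFB) with 72.2%, cytochromes P450 (CYP) with 67.5% and PRAME-like genes (PRAMEF) with 66.7%. No start was marked in 7 families: DCAF, DDX, MRPL, MRPS, POLR, SPDYE and TAF, most of which act in transcription, RNA handling or mitochondrial translation. Genes with the root RPL had 1 of 42 marked, those with the root RPS 1 of 34, and zinc-finger genes (ZNF) 27 of 437, or 6.18%. The root RPS takes in kinase genes as well as ribosomal protein genes.
Tandem arrays weighed heavily in these shares. All 15 kallikrein genes (KLK) on chromosome 19 had at least 50% of the span covered, but they shared 7 peaks, and the 13 marked starts lay in 2 intervals. LCE genes had a median span share of 100%, and the 15 marked ones lay in 7 intervals. By contrast, the 11 marked serotonin receptor genes lay in 11 intervals on several chromosomes, and the 27 marked CYP genes in 23. The next families by median span share were the chemokines (CCL), with 98.4%, the inflammasome sensors (NLRP), with 86.6%, and the POU factors, with 77.6%. Olfactory receptor genes had 139 of 314 starts marked (44.3%, beside 19.4% of all coding genes), in 107 intervals.

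Some gene classes outside the coding genes differed from the 18.8% of coding genes with at least 50% of the span covered. V segments of immunoglobulin and T cell receptor loci, which are rearranged in lymphocytes, had at least 50% of the span covered in 165 of 235 cases, or 70.2%. The share was 25.8% for long non-coding RNA genes, 24.7% for pseudogenes and 9.09% for tRNA genes. MicroRNA genes, at 18.1%, were near the coding genes.

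Marked promoters were poorer in CpG than promoters outside peaks. The 2605 marked promoters with a full sequence held a median of 9 CpG in 250 bases, against 19 for the 11188 that were not marked. An observed over expected CpG ratio of at least 0.6, used here to call a promoter CpG-rich, was reached by 40.5% of marked and 69.6% of unmarked promoters. Put the other way, 1551 of 4956 CpG-poor promoters (31.3%) and 1054 of 8837 CpG-rich promoters (11.9%) were marked.

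**Figure D3:**
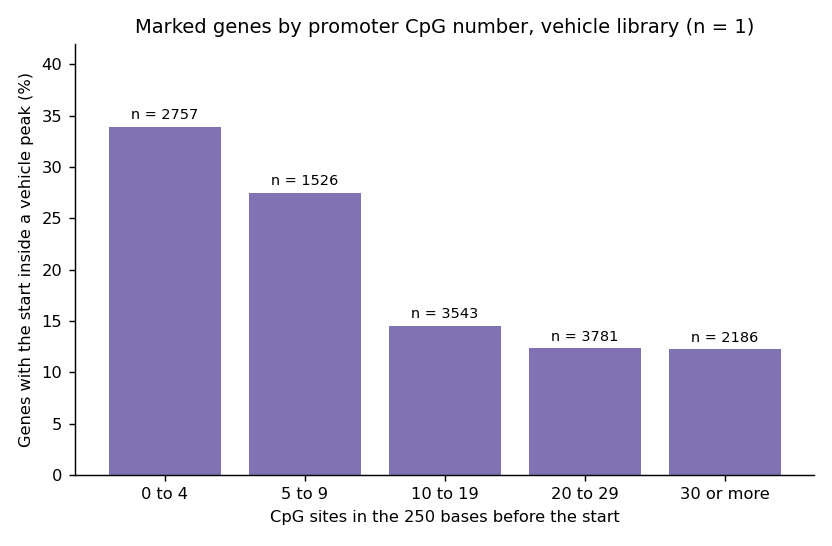
Share of genes whose start lay inside a vehicle peak (y axis, percent) by the number of CpG in the 250 bases before the start (x axis), with the number of promoters above each bar. The share is 34.0% for promoters with 0 to 4 CpG and 12.3% for those with 30 or more.

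The lists differed in CpG content, where 64.1% of all 13793 promoters were CpG-rich. Of the 46 marked developmental transcription factors with a sequence, 37 were CpG-rich, like the HOXD11 and PAX7 promoters printed above, and so were 13 of 17 marked ligands and 15 of 24 marked neuronal genes. Of the marked blood genes 1 of 8 was CpG-rich, and of the marked basal and squamous genes 1 of 5, with KRT5 among the CpG-poor ones. Of unmarked ligands 9 of 11 were CpG-rich, and of unmarked neuronal genes 8 of 14. Unmarked blood genes stood at 3 of 16, and unmarked basal and squamous genes at 2 of 9. These lists thus differed in CpG content among marked and unmarked members alike. CpG-rich content alone did not go with the mark, since 28 of 31 unmarked developmental factors and 29 of 30 unmarked housekeeping genes were CpG-rich as well. Where marked, CpG-rich and CpG-poor promoters lay in intervals of like fragment level, 17.3 and 18.2 per kb (medians).

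Peaks covered 702 Mb, which is 23.2% of the 3030 Mb of chromosome length up to the last gene or interval. Widths ran from 259 bases to 343.4 kb with a median of 1459 bases. Peaks under 1 kb were 36.4% of the peaks but 5.93% of the covered length, whereas those of 5 to 20 kb were 15.1% of the peaks and 40.4% of the length. The widest 10% of peaks held 48.8% of the covered length. Wider peaks also had higher deposited scores, with a median of 17 under 1 kb and 46 at 100 kb or more, the score being the authors' value per peak.

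Most peaks lay away from gene starts. By the deposited annotation, 61.8% were intergenic (61.6 to 62.0%, exact 95% interval), 35.0% intronic, 1.30% exonic, 0.822% at transcript ends and 1.04% at promoters. The median distance to the nearest start was 56.9 kb, and 34.6% of peaks lay beyond 100 kb. Promoter peaks were wider than the others, with a median of 1980 bases against 1444 for intergenic ones, and 13.8 against 12.1 fragments per kb. Of the 4231 peaks of at least 20 kb, 2436 were intergenic and 1591 intronic, the 2 largest classes of peaks. Within these classes such wide peaks were less frequent, at 1.86% of intergenic and 2.144% of intronic peaks. They were 3.097% of promoter peaks, 3.122% of exonic peaks and 2.87% of those at transcript ends.

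Neighbouring peaks were joined into domains. Joining peaks within 5 kb gave 62717 domains, of which 1981 were at least 100 kb wide and held 45.0% of the peak length. That number rests on the joining distance, since joining within 1 kb gave 78. The widest, 1480 kb on chromosome 22 (47902449 to 49382581), was made of 42 peaks and overlapped 1 coding gene, TAFA5, which encodes a secreted brain protein. The next were a 979.5 kb domain on chromosome 1 with CSF3R, the receptor of a granulocyte growth factor, and GRIK3, and an 886.7 kb domain on chromosome 20 with ZNF831, EDN3, PHACTR3 and SYCP2. Others of the widest 10 held GRIN2B, a subunit of NMDA receptors, the neural factor gene POU3F1, SV2C and IQGAP2, PRKCB and CACNG3, or GADD45G.
The widest single peak, 343.4 kb on chromosome 20 (59111894 to 59455322), spanned ZNF831 and EDN3, the gene for endothelin-3, and had 46.2 fragments per kb in its interval. A 212.6 kb peak on chromosome 17 covered the CD300 receptor genes of myeloid cells, with 39.9 fragments per kb. Among coding genes of at least 20 kb that were covered whole, ZNF831 was the longest, at 135.7 kb. The others of the top 10 included the histamine receptor gene HRH2, the dopamine transporter gene SLC6A3, OLFM1, AP3B2 and RSPO4, a WNT signalling enhancer.

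Among intervals of at least 5 kb over a marked start, the densest held BHLHE23, a neural transcription factor on chromosome 20, with 5416 fragments, 65.1 per kb (63.4 to 66.9). LRRC26 and TMEM210 on chromosome 9 shared an interval with 59.6 per kb (55.9 to 63.5), and MRGPRX1, a sensory receptor gene on chromosome 11, had 57.7 (54.5 to 61.1). The protease inhibitor genes SPINT4, WFDC9, WFDC10B and WFDC13 on chromosome 20 shared a 135.1 kb interval with 56.0 per kb (54.7 to 57.2). PRAMEF18 had 63.2 and GPRIN2 58.2 fragments per kb, but both belong to near-identical copies and their counts are uncertain. The highest deposited score, 1003, stood near the REXO1L2P copies on chromosome 8, in an interval with 566 fragments per kb. The next, 726, was on chromosome 11 (94232647 to 94241155), with FOLR4 as the nearest gene and 329 fragments per kb.

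Windows without coding genes were the least covered. Windows of 1 Mb with no coding gene had a median of 1.66% of their length inside peaks, those with 1 to 4 genes 17.8%, and those with 20 or more 26.0%. Of 3020 windows, 316 had at least 50% inside peaks and 154 had none, of which 149 held no counted interval. Windows without genes include assembly gaps, and mappability was not tested. Over the 2871 windows with an interval, coverage and the number of coding genes had a Spearman rho of 0.31, a description over windows of 1 library.

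**Figure D4:**
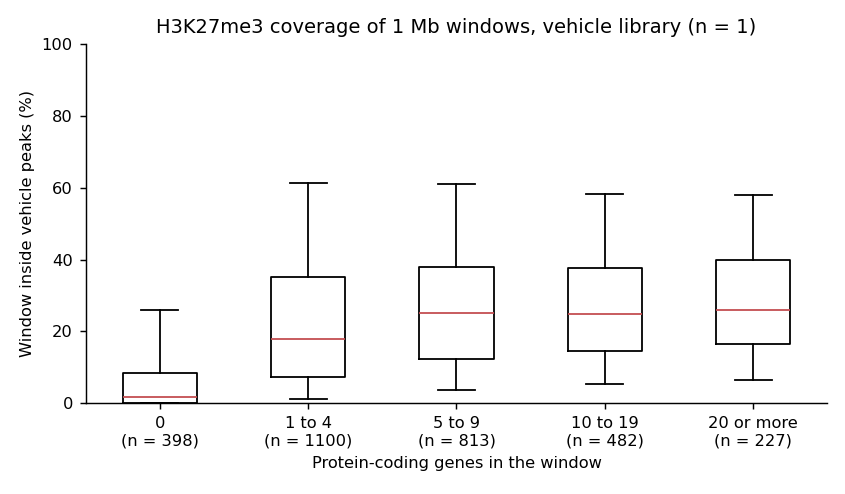
Share of each 1 Mb window inside vehicle peaks (y axis, percent) by the number of coding genes in it (x axis). Boxes span the quartiles with the median as a line, and whiskers reach the 5th and 95th percentiles. Windows without genes sit lowest, with a median of 1.66%.

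Among windows with at least 5 coding genes, the window at 59 to 60 Mb of chromosome 20, with EDN3 and ZNF831, was the most covered, with 86.3% inside peaks. That with PAX7 and the sweet taste receptor gene TAS1R2 on chromosome 1 had 83.0%, that with VPREB1, IGLL5 and PRAME on chromosome 22 had 81.6%, and those of the CCL chemokines and the CD300 genes on chromosome 17 had 81.1% and 80.9%. The least covered ones were on the short arm of chromosome 21 (0 and 0.641%), where genes are listed as copies, at the SPANX genes of chromosome X (0.342%), and in 2 windows of chromosome 5, with CENPK, TRIM23 and ERBIN (0.399%) and with the copies SERF1A and SERF1B (0.491%).

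Chromosomes ranged from 38.7% covered (chromosome 20) to 9.27% (chromosome 4). After chromosome 20 came chromosomes 19 (32.5%), 16 (31.7%), 10 (30.4%) and 11 (30.2%), and the low end also held chromosomes 21 and 13 (15.1% each) and X (16.6%). Assembly gaps were not taken out of the chromosome lengths and count as uncovered, so this order depends in part on them. Fragment levels moved with coverage, at 23.9 per kb of interval on chromosome 20, 8.49 on chromosome 4 and 8.82 on X. Across the 23 chromosomes, coverage followed coding genes per Mb with a Spearman rho of 0.68 and median peak width followed them with 0.78, whereas peaks per Mb did so with -0.14, all values of 1 library. Copy number is part of the fragment level in a cancer line, and without the input libraries copy number and the amount of the mark cannot be told apart here. The share of marked starts was more even, at 22.4% on chromosome 20 and 11.7% on chromosome 4. The share of coding genes with at least 50% of the span inside peaks was less even than that of marked starts. It was 28.3% on chromosome 20 and 6.28% on chromosome 4.

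**Figure D5:**
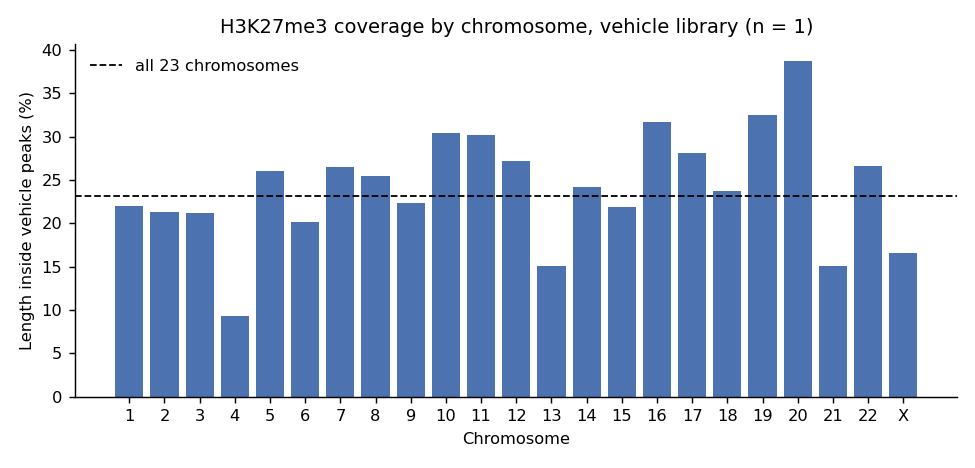
Share of each chromosome's length inside vehicle peaks (y axis, percent; bars start at 0) for chromosomes 1 to 22 and X (x axis). The dashed line is the value over all of them, 23.2%. Chromosome 20 stands highest at 38.7% and chromosome 4 lowest at 9.27%.

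The count table held 17074229 vehicle fragments in 272683 intervals of these chromosomes, which the authors merged from the peaks of the 4 ChIP libraries. The 141455 intervals with a vehicle peak took 95.1% of the fragments over 83.1% of the length, or 15.1 fragments per kb. The 131228 without one, called in another library, had 3.82 per kb, and 11539 of them had 0 fragments. A count of 0 was taken to allow up to 3, a fixed bound and not the 95% interval used elsewhere. The medians were 12.2 fragments per kb with a vehicle peak and 4.03 without, and the ranges overlapped: 10% of the intervals with a peak had under 6.68 per kb, and 10% of those without one had over 10.0.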

How the data were processed

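H3K27me3 was measured by ChIP-seq in 1 library of DMSO-treated T24 cells. The authors deposited raw fragment counts per interval, made with featureCounts 2.0.1 on read pairs without strand, with a minimum overlap fraction of 0.2 and each fragment counted in every interval it overlaps, per the file headers. They also deposited a broad peak list with a score per peak, whose scale is not stated, annotated with HOMER per the file headers. Peaks were called with MACS2 2.1.0 on GRCh38 (hg38), per the submitters' processing notes, separately for each library, per the file headers. What aligner and what control for calling were used is not given in the sources used here. Vehicle fragments in intervals on chromosomes 1 to 22 and X numbered 17074229.

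From there, peaks were overlapped with RefSeq gene spans and starts of GRCh38.p14 with scipy 1.17.1 and pandas 2.3.3 under Python 3.11.15 (figures with matplotlib 3.10.9). Left out were 679 gene records on other sequences. Starts were listed for 15813 of 19821 coding genes, and for none on chromosome 8. Coordinates are 1-based. Counts per interval have exact Poisson 95% intervals and shares of peaks exact Clopper-Pearson ones. A promoter was the 250 bases before the start. The overlap code was tested on simulated peaks. The 3 columns of the other libraries in the count table were not used, and intervals depend on what was called in all 4.

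Genes were named by rule: the 10 with most fragments per kb in an interval of at least 5 kb over a marked start, the 10 of at least 20 kb with most of the span covered, the 10 widest peaks and domains, the 5 most and least covered windows with at least 5 coding genes, from each list up to 3 marked genes with most fragments per kb and 3 with least of the span covered, the 5 families at either end, and a fixed set that includes EZH2, CDKN1A, CDKN2A, RARB, CYP26A1, GATA3, KRT5, MYC and TERT. Other list members are named as examples chosen after their values were seen. The members, lists and rules were chosen with earlier results of these data known. Some genes that these rules would name are not reported here.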

Additional observations from a re-analysis of the deposited data

Results flagged for a closer look

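Outside chromosomes 1 to 22 and X, the vehicle list held a further 388 peaks on 42 other sequences, over 1021 kb. They were set aside from the comparisons above. Their median deposited score was 23, beside 20 for the peaks on chromosomes 1 to 22 and X. No control library was used here, and which of these sequences stem from repeated copies was not tested.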

How the results depend on the processing

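No paired analysis was possible because each condition had 1 library, and leaving out a replicate could not be done for the same reason. With a deposited score of at least 20, 107760 peaks over 540.9 Mb remained, and with a width of at least 1 kb, 134855 peaks over 660.4 Mb. Promoter peaks took 1.37% of the peak length, beside 1.04% of the peaks. A peak anywhere within 2 kb of the start gave 5456 genes (34.5%), and the deposited annotation, with a peak centre within 10 kb of the nearest start, gave 6816, where 3069 had the start itself inside a peak. At least 50% of the 2 kb around the start gave 2975 genes (18.8%), a score of at least 20 gave 2481, and any listed start of the gene, an alternative chosen after seeing the data, gave 3283. Of the 14 lists, 11 stayed on the same side of the share of all coding genes under all 4 rules, and antigen presentation, mesenchymal and urothelial genes changed side with the 2 kb rule. Of the 112 families with at least 15 listed starts, 7 had at least 50% of them called, and 24 with the 2 kb rule. With a CpG ratio of at least 0.75, 26.7% of marked and 54.1% of unmarked promoters were CpG-rich. Windows with at least 50% covered were 10.5% of 1 Mb windows, 13.0% of 500 kb windows, and 6.29% with a score of at least 20. Domains of at least 100 kb numbered 1981 with peaks joined within 5 kb, 78 within 1 kb and 2919 within 10 kb, so their number is set by the joining distance. The median fragments per kb of intervals with a vehicle peak was 3.03 times that of intervals without one, 2.69 times with at least 20 fragments and 3.15 times at 1 kb or more.

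Limits were the single library, the lack of an input or RNA value beside each gene, starts listed for 15813 of 19821 coding genes, and gene spans that overlap or share peaks in clusters. Genes outside peaks had no peak called at this depth. Peak scores have no stated scale and were used only to describe, rank or filter peaks within the list.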
